A study of Mus musculus with 12 samples.

Results

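Hippocampal RNA of *Fmr1* KO mice that had received Nutlin-3 (KO-Nut3, 3 mice) was compared with that of *Fmr1* KO mice that had received vehicle (KO-Veh, 3 mice). These 6 poly(A) RNA-seq libraries were chosen by the genotype and treatment in the sample labels, out of 12 libraries in all. The other 6 came from wild type mice under vehicle (WT-Veh, 3 mice) or Nutlin-3 (WT-Nut3, 3 mice) and served for the test of whether the difference depended on genotype, for the filter on low counts and scaling, and as levels set beside those of the KO mice. All mice were on a C57B/L6 background, and those of the treated groups were given 5 intraperitoneal injections of 10 mg/kg Nutlin-3, dissolved in dimethyl sulfoxide, every other day from 2 months of age. The hippocampi were taken at 6 months, 4 months after the last injection, so the comparison asks which transcripts still differed long after a short treatment. Each library came from a separate animal. The *Fmr1* deficiency was present in both groups compared, and whether these mice carried a *Nestin-GFP* transgene, as others in the study did, is not given in the sources used here. Libraries are named by their animal numbers, RH7, RH10 and RH16 in KO-Veh and RH6, RH8 and RH13 in KO-Nut3, and values are given in that order throughout.

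Nutlin-3 occupies the pocket of the ubiquitin ligase MDM2 that binds p53, and so keeps MDM2 from p53, a transcription factor that activates genes of cell cycle arrest and apoptosis. *Fmr1* encodes FMRP, an RNA-binding protein that holds back the translation of many mRNAs, and its loss causes fragile X syndrome. The hippocampus lies beside the lateral ventricle, where the choroid plexus is attached, a vascular tissue with a secretory epithelium that makes cerebrospinal fluid and a stroma of fibroblasts, vessels and macrophages. Thalamus lies beneath it, and meninges enter along its fissure, so a dissected hippocampus can carry some of each.

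The deposited values were raw numbers of reads per gene. Reads on genes numbered 19426101, 17893564 and 17569438 in the KO-Veh libraries and 17334895, 17221891 and 18234575 in the KO-Nut3 libraries. Levels are given as CPM, read counts scaled to library size with TMM factors, and 22592 genes with more than 20 counts over the 12 libraries were tested with edgeR. At these depths the floor of 3 counts in a library was at most 0.171 CPM, which covers counting error only. As a check of the tissue, the markers of CA pyramidal neurons (15) and of dentate granule neurons (14) had reads in each of the 6 libraries. Transcripts of the Y chromosome, such as *Ddx3y* (57.2 to 77.9 CPM), were present in all 12 libraries, and *Xist* stayed under 1 CPM in each.

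KO-Nut3 RH6 stood apart from the other libraries in its neuronal markers. The 15 thalamic and habenular markers tested summed to 186, 175 and 236 CPM in KO-Veh and to 480.4, 239 and 203 CPM in KO-Nut3. RH6 had the highest sum of the 12 libraries, and the other 11 lay between 175 and 239 CPM. In bulk tissue, a different number of cells of a type and a different amount of RNA per cell cannot be told apart. RH6 was above every KO-Veh library for 10 of the 15 thalamic and habenular markers and below every one for 1. *Tcf7l2*, a transcription factor of thalamic neurons, was at 4.75, 5.13 and 6.04 CPM in KO-Veh and at 32.7, 7.33 and 4.89 CPM in KO-Nut3. Other markers singled out RH6 less. *Prkcd* was at 22.5, 22.8 and 43.2 CPM in KO-Veh and 40.6, 38.6 and 33.6 CPM in KO-Nut3. *Zic1* was at 10.8, 8.51 and 51.1 CPM and 76.8, 48.8 and 29.2 CPM. The 15 markers of CA pyramidal neurons summed to 1325, 1867 and 1866 CPM in KO-Nut3 against 1956, 2005 and 1903 CPM in KO-Veh, and *Cpne7*, one of them, was at 135, 333 and 328 CPM in KO-Nut3 against 370.3, 379.9 and 320.2 CPM. RH6 was also the lowest of the 12 libraries in the CA pyramidal sum. Among the KO-Nut3 libraries it was the lowest for 10 of these 15 markers and the highest for 3. *Map3k15*, the marker with the smallest *P*-value, went the other way, at 4.33, 3.90 and 6.54 CPM in KO-Nut3 against 2.58, 1.47 and 3.13 CPM in KO-Veh (log2 fold change 1.03, adjusted *P* = 0.345).

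*Fmr1* itself (ENSMUSG00000000838, chromosome X, 68678541 to 68717963 in GRCm38), the targeted gene, had 32.7, 32.5 and 37.3 CPM in KO-Veh and 30.6, 28.5 and 35.7 CPM in KO-Nut3 against 74.0 to 79.5 CPM over the 6 wild type libraries, and the genotypes did not overlap. It did not pass the threshold between the treatments (log2 fold change -0.12, standard error 0.10, adjusted *P* = 0.811). *Mdm2*, the target of the drug, was at 62.6, 62.3 and 52.01 CPM in KO-Veh and 60.4, 60.3 and 62.2 CPM in KO-Nut3 (log2 fold change 0.044, standard error 0.080, adjusted *P* = 0.925). *Trp53*, which encodes p53, was at 25.6, 24.8 and 23.9 CPM and 27.2, 27.5 and 25.5 CPM (log2 fold change 0.11, standard error 0.081, adjusted *P* = 0.789). The groups overlapped for all 3 of these genes.

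Over all genes, 44 of 22592 (0.195%) were upregulated and 1 (0.00443%) was downregulated in KO-Nut3 at an adjusted *P*-value under 0.05. Before adjustment, 1298 genes (5.75%) were higher and 418 genes (1.85%) were lower at *P* under 0.05, while the median log2 fold change stood at 0.0034 with quartiles of -0.12 and 0.21. The upregulated genes ranged from 0.66 to 8.27 on the log2 scale with a median of 2.27, and 27 of them rose more than 4-fold. Their median in KO-Veh was 2.43 CPM against 6.26 CPM over all genes tested, and a low KO-Veh level is favoured by their selection as upregulated. They lay on 19 chromosomes with at most 4 on any one. For all 44, the lowest KO-Nut3 library was above the highest KO-Veh library, as was the case for 1774 genes (7.85%) of all tested, while 1230 genes (5.44%) were separated the other way. DESeq2 called 245 genes (1.08%), 239 higher and 6 lower, and these included all 45. A gene is said to pass where its adjusted *P*-value in edgeR was under the threshold, and results of DESeq2 are named as such.

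The number of upregulated genes depended on the libraries that were fitted. It was 5, 5 and 6 without KO-Veh RH7, RH10 or RH16, 64 without KO-Nut3 RH6, 257 without RH8 and 39 without RH13, and it was 0 when all 12 libraries were fitted together, where 1994 genes had *P* under 0.05 before adjustment. Only Gm21887, *Slc13a4*, *Bmp6*, *Dab2* and *Angptl2* passed in each of the 6 fits that left out a library, and 44 of the 45 called genes passed without RH6. Without KO-Veh RH7, RH10 or RH16, 6, 6 and 7 of the 45 passed, so most of the genes described as upregulated passed only with all 3 KO-Veh libraries in the fit.

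Of 13 genes for MDM2, p53 and their partners, none passed the threshold in either direction in edgeR or DESeq2, none had *P* under 0.05 before adjustment, and the median log2 fold change was 0.0014 against 0.0034 over all genes tested. *Mdm4*, the MDM2 paralog that also holds p53 (log2 fold change 0.0021, adjusted *P* = 1), *Usp7*, a deubiquitinase of both (log2 fold change -0.031, adjusted *P* = 0.919), and *Ep300*, an acetyltransferase that works with p53 (log2 fold change -0.0054, adjusted *P* = 0.991), were the most abundant of the list. Among 35 genes that p53 activates, 18 were higher and 17 lower in KO-Nut3, with a median of 0.0011, and 1 of the 35 passed (2 in DESeq2). Over all genes tested, 0.195% passed as higher in edgeR and 1.08% were called in DESeq2. *Cdkn1a*, the cell cycle inhibitor p21, was at 5.52, 5.69 and 6.89 CPM in KO-Veh and 7.54, 5.90 and 4.67 CPM in KO-Nut3 (log2 fold change -0.0019, adjusted *P* = 1). *Perp*, which encodes a membrane protein of desmosomes, was the one that passed, at 2.74, 2.03 and 2.45 CPM in KO-Veh and 10.2, 5.79 and 9.34 CPM in KO-Nut3 (log2 fold change 1.80, standard error 0.24, adjusted *P* = 0.0215). *Perp* was also at 8.94 CPM in WT-Nut3 RH9, and did not pass without KO-Nut3 RH13 or with any KO-Veh library left out. *Zmat3*, *Plk2* and *Ak1* had log2 fold changes of -0.029, -0.20 and -0.064, none of which passed.

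The 44 upregulated genes followed different courses over the 3 KO-Nut3 libraries. RH8 was the lowest of the 3 for 32 genes and the highest for 5. Its level as a share of the mean of RH6 and RH13 was 74.6% at the median, against 99.2% over all genes tested. For 15 genes, among them *Ttr*, *Tmem72*, *Slc4a5*, *Kcne2*, *Folr1* and *Ace*, this share was below 50%, from 6.92% to 48.7%. For the other 29, among them *Bmp6*, *Igf2*, *Slc13a4* and the class II genes, it lay between 53% and 163%. The division at 50% was made after the values were seen. *Tc2n* (48.7%) lay closest to it from below and *Igfbp2* (53%) from above.

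Relative to the KO-Veh mean, the 15 genes had median ratios of 23.0 in RH6, 5.13 in RH8 and 30.9 in RH13. In WT-Nut3 RH9 the median ratio of the same genes was 31.3, and in the other 5 wild type libraries it lay between 0.641 and 1.62. The 29 genes had median ratios of 3.74, 2.75 and 3.88 in the KO-Nut3 libraries, 3.29 in WT-Nut3 RH9 and 2.22 in WT-Veh RH5. WT-Veh RH5, from a mouse that received vehicle, was above every KO-Veh library for 28 of these 29 genes and for 9 of the 15. WT-Nut3 RH9 was above every KO-Veh library for all 44. The 44 genes were picked for KO-Veh levels below those of KO-Nut3, which favours such counts.

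**Figure D1:**
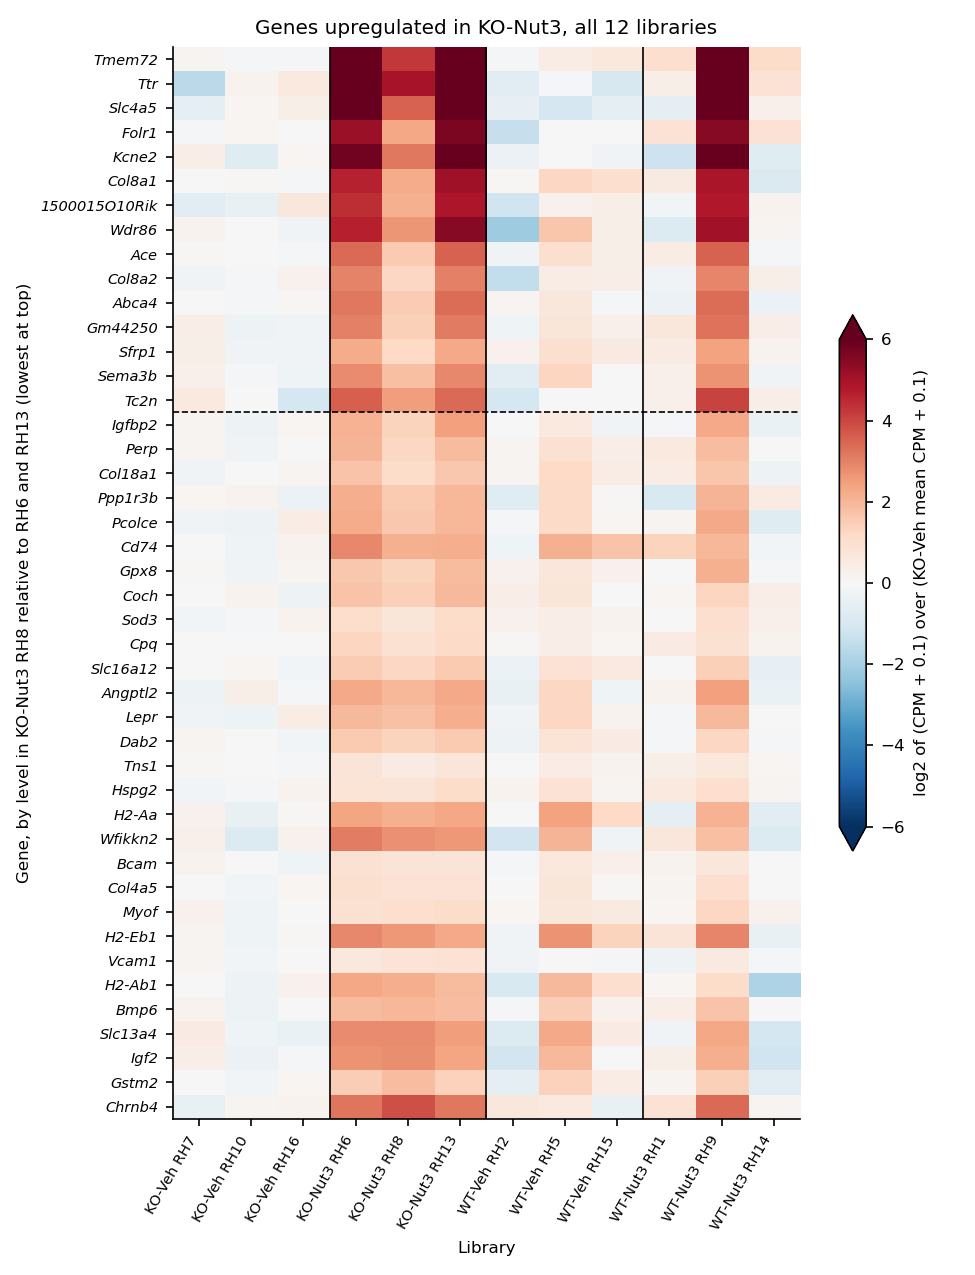
Levels of the 44 upregulated genes (rows) in the 12 libraries (columns), as log2 of CPM + 0.1 over the KO-Veh mean + 0.1, with colours that saturate at 6. Genes are ordered by the level in KO-Nut3 RH8 relative to RH6 and RH13, and the dashed line marks 50%. The 15 genes above it are palest in RH8 among the KO-Nut3 libraries, all 44 are above KO-Veh in WT-Nut3 RH9, and most of the 29 below the line are also above KO-Veh in WT-Veh RH5.

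The growth factor genes were among the calls with the smallest *P*-values. *Bmp6* (ENSMUSG00000039004, chromosome 13, 38345107 to 38500302), a secreted ligand of the bone morphogenetic protein (BMP) family, was at 7.64, 5.19 and 6.72 CPM in KO-Veh and 24.4, 26.3 and 23.9 CPM in KO-Nut3 (log2 fold change 1.93, standard error 0.14, adjusted *P* = 0.00130). The KO-Nut3 libraries lay close together and far above those of KO-Veh. An antisense neighbour, *Txndc5*, overlaps this gene, the counts did not separate the strands, and reads that fell on both genes were not assigned. *Wfikkn2*, whose secreted product binds and inhibits ligands of the transforming growth factor (TGF) beta family, was at 0.981, 0.395 and 0.969 CPM in KO-Veh and 7.21, 5.84 and 5.33 CPM in KO-Nut3 (log2 fold change 2.95, standard error 0.31, adjusted *P* = 0.00851). *Dab2* (ENSMUSG00000022150, chromosome 15, 6299788 to 6440712), an endocytic adaptor that also binds SMAD proteins, was at 8.36, 7.44 and 6.78 CPM and 22.6, 19.4 and 22.6 CPM (log2 fold change 1.51, standard error 0.12, adjusted *P* = 0.00159). The 3 KO-Nut3 libraries were alike for each of these genes, and the groups were far apart.

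These 3 were the only ones of 52 genes of TGF-beta and BMP signalling to pass in edgeR, where 0.195% of all genes tested passed as higher, and none of the 52 passed in the lower direction. In all, 33 were higher and 19 lower, with a median log2 fold change of 0.042, close to that of all genes. Among the ligands, *Bmp7* was at 7.43, 6.20 and 6.38 CPM in KO-Veh and 16.9, 24 and 12.1 CPM in KO-Nut3 (log2 fold change 1.40, adjusted *P* = 0.0537), highest in RH8. The abundant receptors *Bmpr2* (log2 fold change -0.076) and *Acvr1b* (-0.090) and the BMP inhibitor *Chrd* (-0.28) did not pass. DESeq2 called 10 members, all higher and *Bmp7* among them (adjusted *P* = 5.64e-07), against 1.08% of all genes. The count of 3 in edgeR was 5 without KO-Nut3 RH6, 8 without RH8, 4 without RH13, 3 without KO-Veh RH10 and 2 without RH7 or RH16.

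*Igf2* (ENSMUSG00000048583, chromosome 7, 142650766 to 142666816), an insulin-like growth factor that is a fetal mitogen and in the adult brain is made mainly in choroid plexus and meninges, was at 1.03, 0.564 and 0.684 CPM in KO-Veh and 5.44, 5.84 and 4.28 CPM in KO-Nut3 (log2 fold change 2.75, standard error 0.27, adjusted *P* = 0.00718). *Igfbp2*, a secreted protein that binds insulin-like growth factors, was at 23.1, 16.5 and 22.3 CPM and 87.5, 52.99 and 113 CPM (log2 fold change 2.03, standard error 0.24, adjusted *P* = 0.0130), and here RH8 was the lowest of the 3. Both passed (3 members without KO-Nut3 RH8, 1 without KO-Veh RH7 and 0 without RH10 or RH16) among 19 tested genes of the insulin-like growth factor system, which had a median of 0.046 that is the same for any positive value of *Ins2*, the one member without counts in KO-Veh. The share of all genes that passed as higher was 0.195%. *Igfbp5* (0.17), the most abundant binding protein, and the receptor *Igf1r* (-0.020) did not pass. *Igf2* shares a stretch with *Igf2os* on the opposite strand and with Gm49394 on the same strand, and reads that fell on more than one gene were not assigned.

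Other signalling genes rose as well. *Angptl2*, a secreted angiopoietin-like protein, was at 1.96, 3.10 and 2.28 CPM in KO-Veh and 12.3, 10.02 and 12.3 CPM in KO-Nut3 (log2 fold change 2.24, standard error 0.20, adjusted *P* = 0.00254). *Lepr*, the leptin receptor, was at 1.70, 1.58 and 2.74 CPM and 7.99, 7.10 and 9.45 CPM (log2 fold change 2.02, standard error 0.24, adjusted *P* = 0.0123). *Sfrp1*, a secreted modulator of Wnt ligands, was at 3.20, 2.09 and 2.11 CPM and 11.98, 5.73 and 12.3 CPM (log2 fold change 2.01, standard error 0.31, adjusted *P* = 0.0414), and its RH8 value was the lowest of the 3. It was the only one of 48 Wnt pathway genes to pass in edgeR (median log2 fold change 0.22), where DESeq2 called 5. Of all genes tested, 0.195% passed as higher in edgeR and 1.08% were called in DESeq2. The count of 1 was 3 without KO-Nut3 RH8 and 0 without RH13 or any one of the KO-Veh libraries. The abundant members *Ctnnb1* (0.018) and *Apc* (-0.10) did not pass. *Sema3b*, a secreted semaphorin that guides axons, was at 2.89, 2.20 and 1.94 CPM and 17.1, 8.42 and 17.9 CPM (log2 fold change 2.62, standard error 0.29, adjusted *P* = 0.0117).

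**Figure D2:**
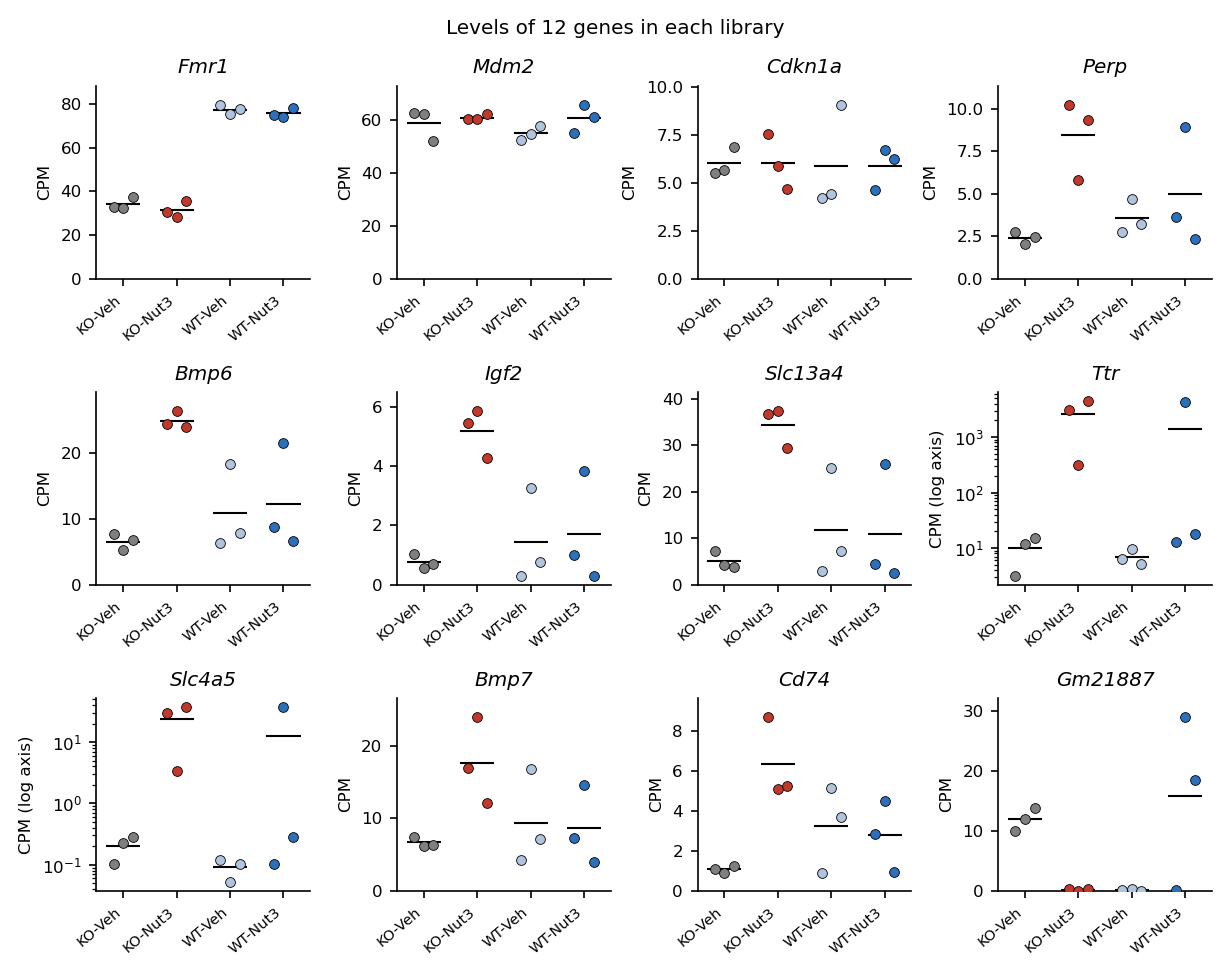
CPM of 12 genes in each library (points) with the group mean (bar), on linear axes from 0 except for *Ttr* and *Slc4a5*, which have log axes. The KO-Nut3 points of *Bmp6*, *Igf2* and *Slc13a4* lie close together above KO-Veh, those of *Ttr* and *Slc4a5* are lowest in RH8 (the middle point), and *Mdm2* and *Cdkn1a* overlap between the groups.

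The epithelial markers of choroid plexus had the largest median difference of the 27 lists plotted. All 23 genes of its identity list were higher in KO-Nut3, 5 passed in edgeR and 19 in DESeq2, against 0.195% and 1.08% of all genes, and the median log2 fold change was 3.41. The groups did not overlap for 20 of the 23, against 7.85% of all genes. *Ttr*, transthyretin, the carrier of thyroid hormone and retinol-binding protein that this epithelium secretes, was at 3.15, 11.6 and 15.2 CPM in KO-Veh and 3091, 314 and 4520 CPM in KO-Nut3 (log2 fold change 8.06, standard error 0.99, adjusted *P* = 0.0131). RH8 was thus far above the KO-Veh libraries but far below RH6 and RH13. *Folr1*, the folate receptor that carries folate into the cerebrospinal fluid, was at 0.568, 0.677 and 0.627 CPM and 26.01, 3.49 and 35.6 CPM (log2 fold change 5.11, standard error 0.80, adjusted *P* = 0.0456).

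*Tmem72*, a membrane protein gene that marks this epithelium, had 3, 2 and 2 counts in the KO-Veh libraries and 53.3, 4.18 and 67.5 CPM in KO-Nut3 (adjusted *P* = 0.0386). *Wdr86*, which encodes a WD repeat protein, was at 0.413, 0.338 and 0.285 CPM in KO-Veh and 11.04, 2.69 and 19.6 CPM in KO-Nut3 (log2 fold change 4.97, standard error 0.72, adjusted *P* = 0.0340). *1500015O10Rik*, also known as *Ecrg4*, which encodes a secreted peptide precursor, was at 0.929, 1.07 and 2.51 CPM and 34.5, 6.99 and 46.4 CPM (log2 fold change 4.29, standard error 0.66, adjusted *P* = 0.0456). RH13 was the highest and RH8 the lowest of the KO-Nut3 libraries for each of these. *Kl*, which encodes the FGF23 co-receptor klotho, was at 21.1, 25.1 and 20.2 CPM and 154, 34.1 and 216 CPM, and passed in DESeq2 (adjusted *P* = 0.0213) but not in edgeR (log2 fold change 2.60, adjusted *P* = 0.110).

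RH8 was the lowest of the KO-Nut3 libraries for all 23 markers. Summed over the list, the markers came to 72.3, 81.5 and 99.4 CPM in KO-Veh and 3767, 444 and 5353 CPM in KO-Nut3, and without *Ttr*, the most abundant, to 69.2, 69.9 and 84.2 CPM and 677, 131 and 833 CPM. WT-Nut3 RH9 held 5009 CPM, between RH6 and RH13, and the other 5 wild type libraries 74.3 to 96.7 CPM. WT-Nut3 RH9 was above every KO-Veh library for 23 of 23 markers, WT-Veh RH5 for 4. The part of a differing amount of choroid plexus in the samples was not tested. The count of 5 was 0 without any one of the KO-Veh libraries, 9 without KO-Nut3 RH6, 22 without RH8 and 2 without RH13. It was also 0 under limma-voom or with all 12 libraries in one fit. Under the filterByExpr filter it was 1, with the animal number range as a term 2, and without a filter on low counts 22.

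Of 25 transporters, channels and enzymes by which this epithelium moves water, ions and solutes, 23 were higher, 5 passed (13 in DESeq2) and the median was 1.49, where 0.195% of all genes passed as higher in edgeR and 1.08% were called in DESeq2. The count of 5 was 7 without KO-Nut3 RH6, 18 without RH8, 3 without RH13 and 1 without KO-Veh RH7, RH10 or RH16. *Slc4a5*, a sodium bicarbonate cotransporter of the apical membrane, was at 0.103, 0.226 and 0.285 CPM in KO-Veh and 30.1, 3.44 and 37.6 CPM in KO-Nut3 (log2 fold change 6.83, standard error 0.99, adjusted *P* = 0.0340). *Kcne2*, an accessory subunit of potassium channels, was at 0.361, 0.113 and 0.285 CPM and 19.5, 3.04 and 22.4 CPM (log2 fold change 5.83, standard error 0.81, adjusted *P* = 0.0280). *Abca4*, a flippase for retinoid-bound lipids, was at 2.68, 2.59 and 2.91 CPM and 25.2, 7.96 and 28.6 CPM (log2 fold change 2.91, standard error 0.41, adjusted *P* = 0.0315). These genes shared the low value of RH8 seen for *Ttr*.

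The other 2 genes of this list that passed, both transporters, did not have that low value. *Slc13a4* (ENSMUSG00000029843, chromosome 6, 35267957 to 35308131), a sodium sulfate cotransporter, was at 7.28, 4.23 and 3.82 CPM in KO-Veh and 36.7, 37.4 and 29.4 CPM in KO-Nut3 (log2 fold change 2.74, standard error 0.21, adjusted *P* = 0.00144), highest in RH8. *Slc16a12*, a transporter of creatine and monocarboxylates, was at 2.74, 2.93 and 2.39 CPM and 8.04, 6.53 and 8.13 CPM (log2 fold change 1.49, standard error 0.18, adjusted *P* = 0.0130). *Slc13a4* also reached 25.1 CPM in WT-Veh RH5, where *Slc4a5* was at 0.0525 CPM. The 3 most abundant genes of this list were well expressed in KO-Veh too and did not pass in edgeR. *Car2*, a carbonic anhydrase, was at 169, 169 and 155 CPM in KO-Veh and 202, 177 and 214 CPM in KO-Nut3 (log2 fold change 0.26, adjusted *P* = 0.342). *Trpm3*, a cation channel, was at 102, 102 and 113 CPM and 296, 129 and 306 CPM (log2 fold change 1.21, adjusted *P* = 0.141), with the groups apart and RH8 well below RH6 and RH13. *Slc12a2*, the sodium potassium chloride cotransporter NKCC1, was at 102, 96.5 and 92.7 CPM and 179, 125 and 162 CPM (log2 fold change 0.67, adjusted *P* = 0.0563), and passed in DESeq2 (adjusted *P* = 8.62e-06). *Ace*, the angiotensin-converting enzyme, is also a gene of this epithelium and was at 8.62, 8.34 and 7.46 CPM in KO-Veh and 87.5, 24.4 and 96.4 CPM in KO-Nut3 (log2 fold change 3.09, standard error 0.43, adjusted *P* = 0.0280).

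Because many of the upregulated genes moved together, their promoters were searched for the letters GGATTA, the core bound by OTX2, a homeodomain factor of choroid plexus, and TAATTA, a core that many homeodomain proteins bind and that reads the same on both strands. The windows ran from 250 bases before to 50 after the start, both strands were read, and promoters of GRCm38.p6 from RefSeq were found for 31 of the 44 genes. GGATTA was held by 3 of the 31 (9.68%), against 7.26% of the genes tested with a promoter, and TAATTA by 3 (9.68%) against 3.95%. The p53 decamer, a stretch that p53 binds in pairs, was in 3 of 31 (9.68%) against 8.73%, and in 9 of 27 genes (33.3%) of the p53 target list. Among the choroid plexus identity genes with a promoter, 1 of 18 (5.56%) held GGATTA and 2 (11.1%) held TAATTA. With so few genes, these shares are a description only. Among the 31 upregulated genes, GGATTA or TAATTA was in *Igf2*, *Ace*, *Abca4* and *Tc2n*, where in *Igf2* the 2 cores overlap and lie past the start. The 250 bases before the start are shown for the other 3, with GGATTA or its reverse complement TAATCC and TAATTA in capitals, since these are the genes with a match before the start, and all 3 had a low RH8 value. They lie at chr11:105967698-105967947 (plus strand), chr3:122044210-122044459 (plus strand) and chr12:101711574-101711823 (minus strand).
Ace: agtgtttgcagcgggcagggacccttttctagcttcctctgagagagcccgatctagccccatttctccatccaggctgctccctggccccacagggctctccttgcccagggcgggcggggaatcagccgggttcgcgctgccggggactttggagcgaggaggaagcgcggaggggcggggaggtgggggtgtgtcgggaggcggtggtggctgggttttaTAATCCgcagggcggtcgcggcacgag
Abca4: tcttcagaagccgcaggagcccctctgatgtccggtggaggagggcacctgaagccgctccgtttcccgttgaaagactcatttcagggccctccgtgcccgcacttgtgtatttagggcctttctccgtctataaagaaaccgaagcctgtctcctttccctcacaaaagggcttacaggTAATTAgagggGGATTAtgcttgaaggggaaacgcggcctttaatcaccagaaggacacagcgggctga
Tc2n: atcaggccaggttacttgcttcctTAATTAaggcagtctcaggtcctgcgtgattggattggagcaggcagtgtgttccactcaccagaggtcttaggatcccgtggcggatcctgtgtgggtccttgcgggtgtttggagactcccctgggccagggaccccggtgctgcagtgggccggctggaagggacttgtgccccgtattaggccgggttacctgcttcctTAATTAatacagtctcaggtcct

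Genes of the extracellular matrix rose in part. Of 32 collagen chains, 26 were higher and 4 passed (9 in DESeq2), with a median of 0.67, against 0.195% of all genes in edgeR and 1.08% in DESeq2. The count of 4 was 3 without KO-Nut3 RH6, 7 without RH8, 2 without RH13 and 0 without any one of the KO-Veh libraries. *Col8a1*, a chain of the short network-forming collagen VIII, was at 0.826, 0.846 and 0.741 CPM in KO-Veh and 22.02, 4.12 and 30.2 CPM in KO-Nut3 (log2 fold change 4.53, standard error 0.67, adjusted *P* = 0.0377). *Col8a2*, the other chain of this collagen, was at 2.37, 2.59 and 3.42 CPM and 22.9, 6.82 and 23.5 CPM (log2 fold change 2.66, standard error 0.42, adjusted *P* = 0.0456). Both had the low RH8 value. *Col18a1*, a basement membrane collagen from which endostatin is cleaved, was at 4.13, 4.85 and 5.24 CPM and 15.97, 10.4 and 14.8 CPM (log2 fold change 1.53, standard error 0.19, adjusted *P* = 0.0130). *Col4a5*, a chain of basement membrane collagen IV, was at 5.78, 5.19 and 6.38 CPM and 11.4, 10.6 and 10.5 CPM (log2 fold change 0.90, standard error 0.14, adjusted *P* = 0.0414). The abundant chains of that collagen in vessels, *Col4a1* (-0.064) and *Col4a2* (-0.058), and the neuronal collagen *Col25a1* (0.15) did not pass.

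Among 41 other matrix proteins, 36 were higher and 1 passed, with a median of 0.59, and DESeq2 called 16, against the same shares of all genes (0.195% and 1.08%). The count of 1 was 3 without KO-Nut3 RH6, 7 without RH8, 3 without RH13 and 0 without any one of the KO-Veh libraries. *Hspg2*, the basement membrane proteoglycan perlecan, was at 12.2, 13.4 and 16.01 CPM in KO-Veh and 24.6, 23.4 and 29.6 CPM in KO-Nut3 (log2 fold change 0.90, standard error 0.13, adjusted *P* = 0.0340). The members with the highest levels did not pass, namely *Agrn*, agrin (log2 fold change -0.050), *Sparc* (0.46) and *Fn1*, fibronectin (0.24). *Sparc* was at 465, 243 and 234 CPM in KO-Nut3 against 244, 232 and 206 CPM in KO-Veh, high in RH6 alone. Of 32 genes of matrix remodelling, 1 passed in edgeR and 5 in DESeq2. The count of 1 was 2 without KO-Nut3 RH6, 4 without RH8, 1 without RH13 or KO-Veh RH16 and 0 without KO-Veh RH7 or RH10. *Pcolce*, which enhances the trimming of procollagen, was the one that passed, at 3.25, 3.04 and 5.18 CPM and 18.3, 11.9 and 15.7 CPM (log2 fold change 2.00, standard error 0.23, adjusted *P* = 0.0122). *Timp3*, an inhibitor of metalloproteinases, was at 61.6, 56.4 and 74.7 CPM and 90.7, 94.1 and 84.2 CPM (log2 fold change 0.48, adjusted *P* = 0.136), and passed in DESeq2 (adjusted *P* = 0.00453). *Timp2*, *Mmp17* and *Bmp1* had log2 fold changes of -0.020, -0.23 and -0.17, none past the threshold. Outside the lists, *Tns1*, the focal adhesion protein tensin, was at 46.5, 42.7 and 42.4 CPM and 74.2, 62.6 and 71.7 CPM (log2 fold change 0.66, standard error 0.080, adjusted *P* = 0.0130). *Bcam*, a laminin-binding membrane protein, was at 15.4, 13.5 and 11.1 CPM and 25.5, 22.9 and 22.6 CPM (log2 fold change 0.82, standard error 0.13, adjusted *P* = 0.0456). The groups were separate for both, with little spread inside them.

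Fibroblast markers of meninges and choroid plexus stroma had another order of libraries. Of 26 markers, 25 were higher in KO-Nut3 and 22 had *P* under 0.05 before adjustment, against 5.75% of all genes. None passed after adjustment in edgeR (smallest adjusted *P* = 0.0537, for *Bmp7*), while DESeq2 called 11, against 1.08% of all genes. Their median was 1.32. RH8 was the highest of the KO-Nut3 libraries for 25 of the 26 and RH13 the lowest for 21, the reverse of the epithelial markers. Summed, they came to 229, 218 and 258 CPM in KO-Veh and 352, 588 and 275 CPM in KO-Nut3, and to 456 CPM in WT-Veh RH5, which was above every KO-Veh library for 25 of the 26. *Slc13a3*, a carboxylate transporter, was at 10.01, 10.04 and 11.1 CPM and 25.5, 39.98 and 10.4 CPM (log2 fold change 1.28, adjusted *P* = 0.343), and the abundant members *Dcn* (-0.37) and *Pdgfra* (0.056) did not pass, of which *Dcn* was the one that was lower. The count of 0 became 9 without KO-Nut3 RH13, 3 without RH6 and 2 without RH8, and was 0 without any one of the KO-Veh libraries. The 14 mural cell markers summed to 264, 234 and 225 CPM in KO-Veh and 291, 367 and 270.2 CPM in KO-Nut3, again highest in RH8. Their median was 0.50, and none passed in edgeR, while DESeq2 called 1. The part of a differing amount of meninges or stroma in the samples was not tested.

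**Figure D3:**
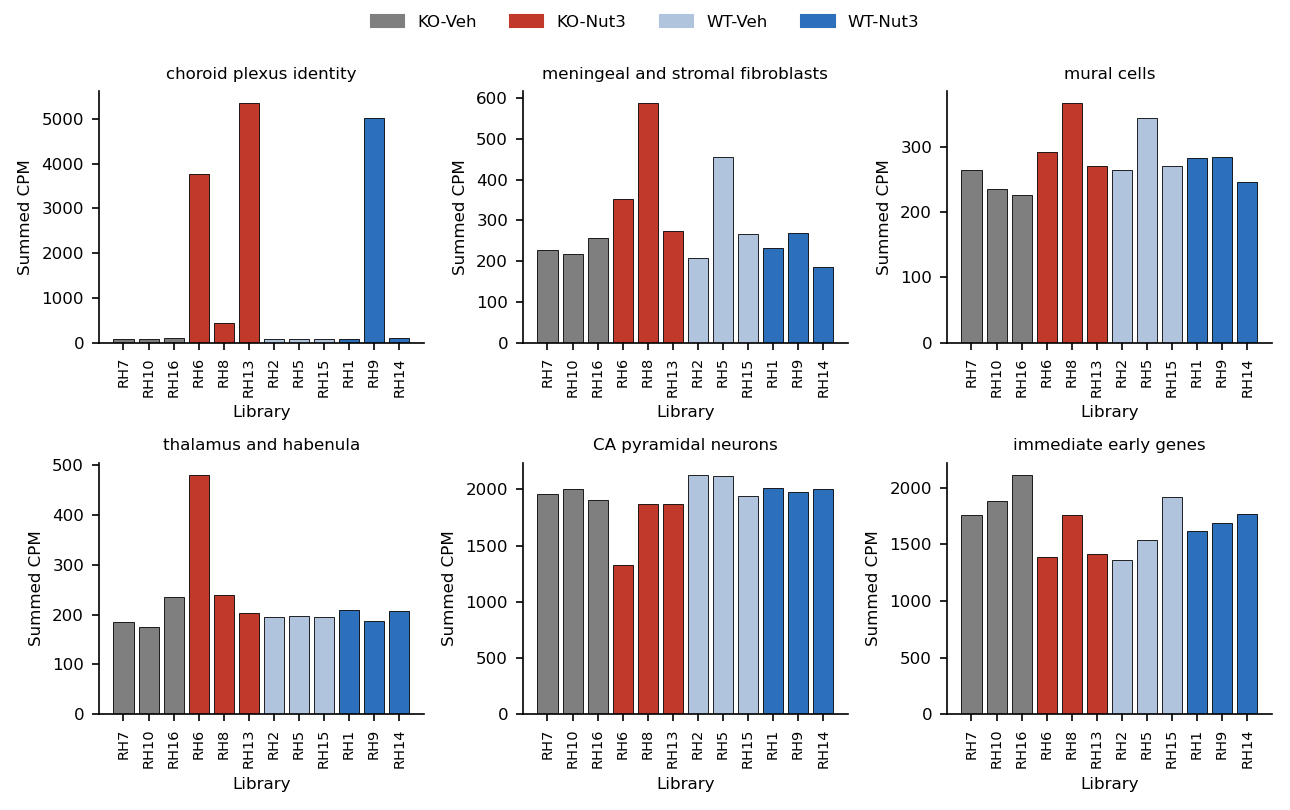
Summed CPM of the members of 6 gene lists in each of the 12 libraries, coloured by group, on axes from 0. Epithelial choroid plexus markers are high in RH6, RH13 and WT-Nut3 RH9, fibroblast and mural markers in RH8 and WT-Veh RH5, and thalamic markers in RH6, which is also lowest in markers of CA pyramidal neurons.

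Of 11 genes tested for MHC class II, which presents antigen on macrophages and dendritic cells, 8 were higher, 3 were lower and 4 passed as higher in edgeR and in DESeq2, against 0.195% and 1.08% of all genes. The count of 4 held without any one KO-Nut3 library and was 0 without any one of the KO-Veh libraries. *H2-Eb1*, *H2-Aa* and *H2-Ab1* encode chains of the class II dimers, and *H2-Eb1* was at 0.568, 0.395 and 0.513 CPM in KO-Veh and 4.22, 3.49 and 2.75 CPM in KO-Nut3 (log2 fold change 2.80, standard error 0.30, adjusted *P* = 0.00925). *H2-Aa* was at 0.723, 0.395 and 0.627 CPM and 3.38, 2.92 and 3.35 CPM (log2 fold change 2.45, standard error 0.29, adjusted *P* = 0.0123). The 3 KO-Nut3 libraries were close to each other for both. *H2-Ab1* was at 0.671, 0.507 and 0.798 CPM and 3.66, 3.38 and 2.75 CPM (log2 fold change 2.29, standard error 0.28, adjusted *P* = 0.0130). The invariant chain *Cd74*, which escorts the dimers, was at 1.08, 0.902 and 1.25 CPM and 8.71, 5.10 and 5.27 CPM (log2 fold change 2.55, standard error 0.28, adjusted *P* = 0.0111). These 4 were at low levels in KO-Veh, and the list had a median of 1.01. The loading factor *H2-DMa* (log2 fold change -0.25), the protease *Ctss* (-0.091) and the master regulator *Ciita* (0.090) did not pass.

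WT-Veh RH5 had 3.78 CPM of *H2-Eb1* and 3.57 CPM of *H2-Aa*, the former within and the latter above the KO-Nut3 range. All 12 markers of border macrophages were higher in KO-Nut3, with a median of 0.98, and the 1 that passed was *Dab2*, which other cells also express (2 passed in DESeq2, and 2 in edgeR without KO-Nut3 RH13). The shares over all genes were 0.195% higher in edgeR and 1.08% called in DESeq2. *Mrc1*, the mannose receptor that marks these macrophages, was at 2.89, 1.64 and 3.53 CPM in KO-Veh and 6.60, 7.45 and 3.13 CPM in KO-Nut3 (log2 fold change 1.09, adjusted *P* = 0.434), and *Stab1*, a scavenger receptor, was at 20.7, 18.7 and 20.2 CPM and 21.1, 27.6 and 21.03 CPM (log2 fold change 0.22, adjusted *P* = 0.730). Summed, the 12 markers came to 36.5, 31.5 and 36.1 CPM in KO-Veh and 60.5, 69.6 and 53.3 CPM in KO-Nut3. The 14 markers of microglia, 11 of which were lower, had a median of -0.063, and none passed in edgeR or DESeq2. Their most abundant member *Csf1r* had a log2 fold change of -0.075. The part of macrophage numbers in the class II result was not tested.

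The other genes that passed were outside these lists and covered several functions. *Coch*, the secreted matrix protein cochlin, was at 3.15, 3.61 and 2.51 CPM in KO-Veh and 10.3, 8.48 and 12.3 CPM in KO-Nut3 (log2 fold change 1.74, standard error 0.20, adjusted *P* = 0.0117). *Vcam1*, an adhesion molecule for leukocytes that neural stem cells also carry, was at 23.1, 18.8 and 20.8 CPM and 32.5, 36.7 and 38.6 CPM (log2 fold change 0.78, standard error 0.10, adjusted *P* = 0.0204). *Chrnb4*, a subunit of nicotinic acetylcholine receptors, had 0, 1 and 1 counts in KO-Veh and 1.17, 1.89 and 1.15 CPM in KO-Nut3 (adjusted *P* = 0.0161). RH8 was the highest for *Chrnb4*, and *Vcam1* was similar in all 3 KO-Nut3 libraries.

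Also outside the lists, *Gpx8*, a peroxidase of the endoplasmic reticulum, was at 1.81, 1.47 and 1.94 CPM and 5.60, 4.53 and 6.65 CPM (log2 fold change 1.68, adjusted *P* = 0.0204). *Sod3*, the extracellular superoxide dismutase, was at 7.59, 7.89 and 9.69 CPM and 17.3, 14.03 and 17.9 CPM (log2 fold change 0.96, adjusted *P* = 0.0377). *Gstm2*, a glutathione transferase, was at 1.08, 0.958 and 1.20 CPM and 3.16, 4.18 and 3.02 CPM (log2 fold change 1.67, adjusted *P* = 0.0386). For all 3 the groups were separate, and RH8 was lowest for *Gpx8* and *Sod3* but highest for *Gstm2*.

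The remaining genes rose with the groups apart. *Ppp1r3b*, which targets protein phosphatase 1 to glycogen, was at 1.14, 1.24 and 0.798 CPM in KO-Veh and 5.21, 3.38 and 4.45 CPM in KO-Nut3 (log2 fold change 2.03, adjusted *P* = 0.0204). *Cpq*, a carboxypeptidase, was at 5.58, 5.81 and 5.58 CPM and 13.8, 10.7 and 12.7 CPM (log2 fold change 1.13, adjusted *P* = 0.0131). *Myof*, the membrane repair protein myoferlin, was at 7.43, 5.24 and 6.10 CPM and 11.98, 12.7 and 13.6 CPM (log2 fold change 1.02, adjusted *P* = 0.0377). The KO-Nut3 libraries lay close together for *Cpq* and *Myof* and less so for *Ppp1r3b*, which was lowest in RH8. The last of the 44 had the low RH8 value. *Tc2n*, a C2 domain protein, had 4, 2 and 0 counts in the KO-Veh libraries and 2.39, 1.09 and 2.09 CPM in KO-Nut3 (adjusted *P* = 0.0456). Gm44250, the one upregulated gene not annotated as protein coding, was at 2.12, 1.24 and 1.37 CPM and 13.7, 4.35 and 14.7 CPM (log2 fold change 2.78, standard error 0.43, adjusted *P* = 0.0456). Of the 45 called genes, 22 overlap another annotated gene, and reads that fell on more than one gene, 4.99% to 5.32% of the reads in these 6 libraries, were not assigned.

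The gene that passed in the lower direction was Gm21887 (ENSMUSG00000095562, chromosome X, 170009659 to 170019281), annotated as protein coding by GENCODE and listed by RefSeq under *Erdr1*, as a transcribed pseudogene. Its level was 9.96, 11.9 and 13.8 CPM in KO-Veh and 0.333, 0 and 0.220 CPM in KO-Nut3 (log2 fold change -5.95, standard error 0.42, adjusted *P* = 0.00130), and it passed in each of the 6 fits without 1 library. The wild type libraries had 0.0597, 0.210 and 0 CPM in WT-Veh RH2, RH5 and RH15 and 0.0507, 28.9 and 18.5 CPM in WT-Nut3 RH1, RH9 and RH14. High and near-absent levels thus occurred inside the WT-Nut3 group. This gene lies near the pseudoautosomal end of chromosome X, where copies are alike, so its counts are uncertain.

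The next genes in that direction did not pass in edgeR, while *Dlk1* (adjusted *P* = 0.0383) and *Zmym1* (adjusted *P* = 0.0457) passed in DESeq2. *Rgs13*, a regulator of G protein signalling, was at 1.81, 1.02 and 1.08 CPM in KO-Veh and 0.277, 0.401 and 0.384 CPM in KO-Nut3 (log2 fold change -1.87, adjusted *P* = 0.145). *Dlk1*, a Notch-related membrane protein, was at 18.9, 17.1 and 18.8 CPM and 11.5, 13.3 and 13.8 CPM (log2 fold change -0.51, adjusted *P* = 0.145), and *Zmym1*, a zinc finger protein, was at 21.3, 24.2 and 25.7 CPM and 16.1, 17.1 and 18.5 CPM (log2 fold change -0.46, adjusted *P* = 0.160). The groups were separate for each, as for 5.44% of genes.

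Immediate early genes, which neuronal activity induces within minutes, were all at lower values in KO-Nut3. Of 27, all 27 had a negative log2 fold change with a median of -0.28, 11 had *P* under 0.05 before adjustment, against 1.85% of all genes, and none passed in edgeR, while DESeq2 called 2, *Junb* (adjusted *P* = 0.00781) and *Arc* (adjusted *P* = 0.00297). Over all 22592 genes tested, DESeq2 called 6 as lower, and 1.08% in either direction. *Junb*, a subunit of the AP-1 transcription factor, was at 86.9, 87.3 and 107 CPM in KO-Veh and 63.2, 77.5 and 58.98 CPM in KO-Nut3 (log2 fold change -0.50, standard error 0.12, adjusted *P* = 0.186). *Arc*, a regulator of synaptic AMPA receptors, was at 201, 232 and 271 CPM and 155, 187 and 124 CPM (log2 fold change -0.60, standard error 0.15, adjusted *P* = 0.220). *Egr1* and *Homer1* had log2 fold changes of -0.37 and -0.27, with overlapping groups. Summed, the list came to 1756, 1881 and 2113 CPM in KO-Veh and 1385, 1762 and 1416 CPM in KO-Nut3, where RH8 was within the KO-Veh range, and to between 1364 and 1919 CPM over the wild type libraries. Without RH8, 4 members passed in the lower direction, and without RH6 none did.

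No gene of adult neurogenesis and proliferation passed in edgeR or DESeq2. Of 33 tested, 16 were higher and 17 lower, with a median of -0.050 and a smallest adjusted *P*-value of 0.422, for the lysophosphatidic acid receptor *Lpar1*. *Stmn1* (log2 fold change 0.015), *Prox1* (-0.15) and *Ccnd2* (-0.16), the most abundant, are also expressed outside the neurogenic zone. *Prox1* was at 129, 116 and 125 CPM in KO-Veh and 91.9, 119 and 123 CPM in KO-Nut3, lowest in RH6.

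Markers of the main hippocampal cell types likewise gave no call in either tool, as did those of endothelium, ependyma and blood. The median log2 fold change was -0.14 over 15 markers of CA pyramidal neurons, -0.11 over 14 of dentate granule neurons, -0.12 over 15 of interneurons and 0.0072 over 14 of astrocytes. It was 0.21 over 18 genes of oligodendrocytes and myelin, of which 17 were higher, with *Mbp*, myelin basic protein, at 2333, 2120 and 2331 CPM in KO-Veh and 2874, 2450 and 2446 CPM in KO-Nut3 (log2 fold change 0.19, adjusted *P* = 0.638). Without RH6 the medians of the neuronal lists moved to -0.056, 0.0037 and -0.085. Endothelial genes had a median of 0.26 over 16 and red blood cell genes 0.43 over 6, with *Hbb-bs* at 25.9, 22.95 and 31.96 and 42.3, 23.1 and 33.7 CPM. Of 22 genes of ependyma and motile cilia, which line the ventricle, 20 were higher with a median of 0.47, and *Foxj1*, the regulator of motile cilia, was at 12.5, 11.4 and 20.7 CPM and 26.8, 18.6 and 24.8 CPM (log2 fold change 0.65, adjusted *P* = 0.450). The 15 thalamic markers had a median of 0.37, which became 0.048 without RH6.

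**Figure D4:**
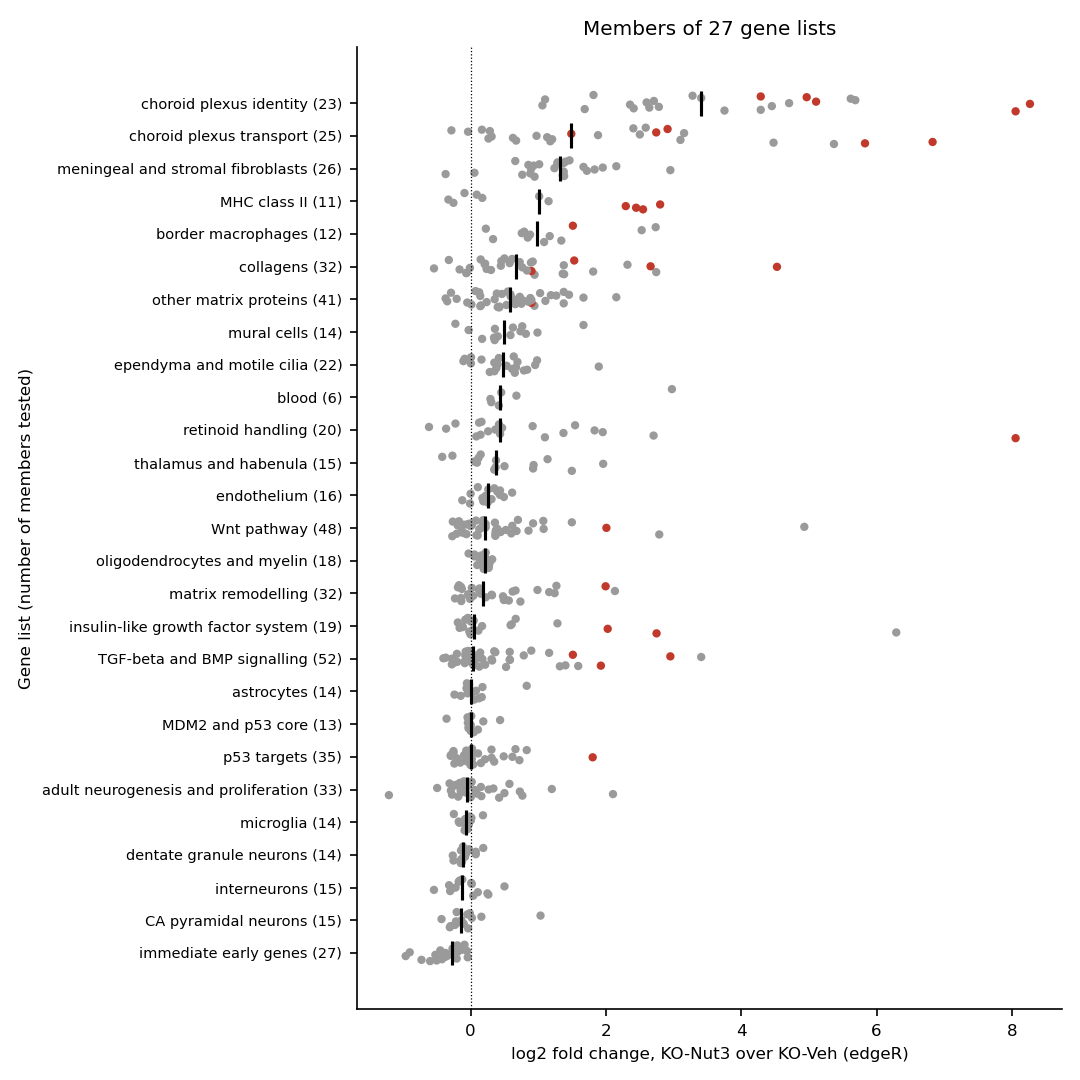
Log2 fold change between KO-Nut3 and KO-Veh of each tested member (points) of 27 gene lists, ordered by the median (black bar), with members past the adjusted threshold in red. The 2 choroid plexus lists and the fibroblast list stand at the top with medians of 3.41, 1.49 and 1.32, and immediate early genes at the bottom with all 27 points below 0.

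The study had picked 9 genes on these libraries for quantitative PCR, so their direction here is not independent evidence. Of these, 5 passed as higher (*Angptl2*, *Bmp6*, *Col8a1*, *Igf2* and *Tmem72*) and *Erdr1* as lower in edgeR, and DESeq2 called 8 higher and 1 lower. In edgeR the higher count of 5 was 7 without KO-Nut3 RH6 or RH8, 3 without RH13 or KO-Veh RH7 and 2 without RH10 or RH16. The adjusted *P*-values in DESeq2 were 0.00253 for *Enpp2*, 0.000261 for *Aqp1* and 0.00453 for *Timp3*. *Enpp2*, autotaxin, which makes lysophosphatidic acid and is abundant in choroid plexus, was at 122, 128 and 157 CPM in KO-Veh and 1532, 278 and 1945 CPM in KO-Nut3 (log2 fold change 3.20, adjusted *P* = 0.0606). *Aqp1*, the water channel of its apical membrane, was at 0.671, 0.169 and 0.285 CPM and 23.1, 1.83 and 23.5 CPM (log2 fold change 5.37, adjusted *P* = 0.0666). Both had the low RH8 value of the epithelial markers, and *Timp3* did not. In the list of 20 genes of retinoid handling, *Ttr* alone passed in edgeR, 3 passed in DESeq2 and the median was 0.43. Among all genes tested, 0.195% passed as higher in edgeR and 1.08% were called in DESeq2. The count of 1 was 2 without KO-Nut3 RH6 or RH13, 3 without RH8 and 0 without any one of the KO-Veh libraries. *Aldh1a1*, which makes retinoic acid, was at 41.97, 41.2 and 42.4 CPM in KO-Veh and 60.3, 49.8 and 40.4 CPM in KO-Nut3 (log2 fold change 0.26, adjusted *P* = 0.690).

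Whether the difference depended on genotype was asked with the interaction term over all 12 libraries, in which edgeR called 0 genes (0%) and DESeq2 called 1, while 942 had *P* under 0.05 before adjustment. That was so for 23 of the 45 genes called in *Fmr1* KO mice, against 942 of 22592 over all genes. The 45 were chosen for their difference in KO mice, which is part of the interaction term, so a larger share was built in. Gm21887 had the lowest Benjamini-Hochberg adjusted *P* in edgeR, 0.127, and those of the 44 upregulated genes were at 0.994 or above. *Bmp6* had 6.27, 18.3 and 7.78 CPM in WT-Veh and 8.67, 21.4 and 6.56 CPM in WT-Nut3 (interaction log2 estimate 1.75, adjusted *P* = 0.994). *Ttr* had 6.39, 9.56 and 5.15 CPM and 12.9, 4215 and 18.2 CPM (interaction log2 estimate 0.41, adjusted *P* = 0.996). In the WT-Nut3 group RH9 was the highest library for all 44 genes, and in WT-Veh RH5 was the highest for 40, and these genes were therefore spread widely inside both wild type groups. In edgeR no gene was called for a difference in response between the genotypes, which does not show that the response was the same. The part of this spread in that result was not tested.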

How the data were processed

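Poly(A) RNA of hippocampus was sequenced by the study, 3 libraries per group. The authors aligned the reads to mm10 with STAR and deposited raw counts per gene for each library. The STAR version and annotation release are not given in the sources used here. The unstranded count column was used, and the 4 STAR classes for reads outside genes were left out. Reads that lie on more than one gene were not assigned. Because the counts ignored strand, this also holds for reads shared by genes on opposite strands.

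Genes with more than 20 counts over the 12 libraries were tested in R 4.3.3 with the quasi-likelihood test of edgeR 4.0.16 and TMM factors on the 6 KO libraries, and the interaction was fitted over all 12. *P*-values were adjusted by Benjamini and Hochberg over all 22592 genes, with a threshold of 0.05. CPM values used TMM factors over 12 libraries. The steps were tested on simulated data. Alternatives were DESeq2 1.42.0 and its size factors, limma 3.58.1 with voom, other count filters, a term for animals numbered up to 8 against the later ones, all 12 libraries in one fit, and each library left out.

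Genes to be named were set by rule. These were *Fmr1*, *Mdm2*, *Trp53* and *Cdkn1a*, the 9 qPCR genes, every gene past the threshold, in each list the 3 most abundant members and the one with the smallest *P*-value, and the 5 lower genes with the smallest *P*-values. Not all of the list members under this rule are printed, and for several cell type lists only some or none are. The members and lists were chosen with earlier results of these data known.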

Additional observations from a re-analysis of the deposited data

How the results depend on the processing

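The count of 44 upregulated genes became 239 with DESeq2, 522 without a filter on low counts, 19 with the animal number range as a term, 18 with limma-voom and 0 with all 12 libraries in one fit. Leaving out 1 library gave 5 to 257 upregulated genes, the fewest without KO-Veh RH7 or RH10 and the most without KO-Nut3 RH8. The count of 1 downregulated gene became 6 with DESeq2, 32 without a filter and 0 with all 12 libraries, and lay between 1 and 9 with 1 library left out. The count of 0 for the interaction became 1 with DESeq2 and 291 without a filter, and lay between 0 and 1 with 1 library left out, where the 1 came without WT-Nut3 RH1. The cause of these shifts was not tested. Of the 45 called genes, 45 passed under DESeq2, DESeq2 size factors, no filter or without KO-Nut3 RH8, 44 without RH6, 34 under the filterByExpr filter, 24 without RH13, 20 with the number term, 19 under limma-voom, and 6, 7 and 6 without KO-Veh RH7, RH16 or RH10. None of the 45 changed direction under these alternatives. The floor of 3 counts, at most 0.171 CPM in a library, was a chosen setting, and no limit of detection was estimated. No paired analysis was made, because the labels number each animal separately and do not give litters or pairs.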
